A study of Mus musculus with 6 samples.

Results

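Hepatic iron regulation genes are the set of 10 genes, named Hamp, Slc40a1, Tfrc, Tfr2, Hfe, Hfe2 (Hjv in current annotation), Fth1, Ftl1, Cp and Ireb2, by which the liver sets, exports and stores iron. Every probe set of an Affymetrix 3' expression array that is annotated to exactly 1 of these symbols was taken, which gave 27 probe sets for 9 genes. Of these, 3 are array control probe sets for Tfrc that were left out of the tests, so 24 of 45037 tested probe sets belong to the set. Ftl1, the ferritin light chain, has no probe set of its own, because the 3 that name it also name at least 1 other gene, and it is not analysed here. The livers came from 6 male BALB/cCrSlc mice, an inbred laboratory strain, aged 17 weeks. In 3 of them the diet, named 6C+4CP, held 6% casein plus 4% fish collagen peptide, and in the other 3 the control diet, named 10C, held 10% casein. Both were low-protein diets on an AIN-93M base, eaten for 10 weeks. A liver piece was taken from each mouse after 3 h without food, and the 3 mice of a diet had been picked from 12 for a medium ratio of weight gain to food eaten. Casein was lowered and collagen peptide added together, so the 2 changes cannot be told apart, and the third group that the design text counts is not analysed here.

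Systemic iron is governed by hepcidin, the peptide hormone that hepatocytes make from the Hamp transcript and that brings about the breakdown of ferroportin, the only known iron exporter of vertebrate cells. Hepatocytes raise Hamp transcription when BMP ligands from sinusoidal endothelium act through receptors, the co-receptor hemojuvelin and SMAD proteins, and when interleukin-6 acts through STAT3 during inflammation. Inside cells the iron regulatory proteins, among them the product of Ireb2, bind elements in messenger RNAs of ferritin, transferrin receptor and ferroportin and set their translation or stability.

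The sequences before the Hamp start and before that of its neighbour Hamp2 are shown because Hamp was the iron gene with the widest spread between mice. Both are the 250 bases upstream of the transcript start on the minus strand, from RefSeq on GRCm38.p6, at chr7:30944030-30944279 for Hamp and chr7:30924182-30924431 for Hamp2. Capitals mark GGCGCC, the core of the element through which SMAD proteins act on Hamp, and TTCNNNGAA, the general form of a STAT site, each searched on both strands. They did not overlap one another.
Hamp: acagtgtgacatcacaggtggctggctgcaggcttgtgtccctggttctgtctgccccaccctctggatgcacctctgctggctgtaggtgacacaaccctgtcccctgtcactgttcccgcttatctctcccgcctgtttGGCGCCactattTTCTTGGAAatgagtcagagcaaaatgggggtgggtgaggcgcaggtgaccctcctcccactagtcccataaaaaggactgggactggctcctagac
Hamp2: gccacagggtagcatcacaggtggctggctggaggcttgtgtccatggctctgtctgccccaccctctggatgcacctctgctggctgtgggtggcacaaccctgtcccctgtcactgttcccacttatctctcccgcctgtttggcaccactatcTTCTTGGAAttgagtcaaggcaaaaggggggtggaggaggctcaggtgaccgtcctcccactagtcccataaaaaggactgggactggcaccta
GGCGCC stood 109 to 104 bases before the Hamp start and the STAT form 97 to 89 bases before it. In Hamp2 the STAT form stood 94 to 86 bases before the start, and GGCGCC was not in the window. Of 247 aligned bases 227 (91.9%) were identical between the 2 windows, and at the aligned core Hamp2 carried 1 substitution, G4A, with positions counted from the 5′ end of GGCGCC and the Hamp base given first. Among 32851 such windows of all genes, 9.59% held GGCGCC, 7.02% held the STAT form and 121 (0.368%) held both. Windows were found for 8 of the 10 iron genes, 13 in all. GGCGCC was in 2 of them, 1 of Hamp and 1 of Tfrc, and the STAT form was in the Hamp window alone. A match of letters is a description and shows no binding.

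The values are the authors' deposited ones, read as log2 because no source used here states the base, and every difference below is 6C+4CP minus 10C in mean value. Most probe sets carry 1 value shared by all mice. Only 7791 of 45037 ranged over more than 0.01 across the arrays and are called varying below, and a probe set that did not vary cannot show whether its gene differed. Each array is a separate mouse, and with 3 mice a diet the intervals are wide. Array medians lay between 6.306 and 6.308, but the shared values largely fix them, so they say little of how alike the arrays are. Hepatocyte markers were high in every liver, with a mean over 8 varying markers of 12.99 to 13.12 in 6C+4CP and 13.06 to 13.17 in 10C, on a table whose values run from 4.76 to 14.48. The livers labelled 10C replicate 3 and 6C+4CP replicate 2 were more alike (r = 0.985 across varying probe sets, which are not independent) than 10C replicate 3 was to the other 10C livers (0.971 and 0.973). Whole liver was measured, so fewer cells of a type and less RNA per cell cannot be told apart.

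No iron gene passed the test between the diets. Of the 24 probe sets 16 varied, and they represent 8 genes, with 9 probe sets higher and 7 lower in 6C+4CP. With limma over all 45037 probe sets 0 of the 24 passed at a Benjamini-Hochberg adjusted p under 0.05, and 2, both of Cp, had an unadjusted p under 0.05. The background was 109 called probe sets (0.242%), of which only 6 varied. At an unadjusted p under 0.05 it was 2890 of the 45037. With limma on varying probe sets alone 0 of 16 passed, 1 at an unadjusted p under 0.05, beside 0 of all 7791 (0%), 1140 at an unadjusted p under 0.05. The 3 livers of one diet lay wholly apart from the 3 of the other in 3 of the 16 (18.8%), 1 of Slc40a1 and 1 of Cp higher and 1 of Cp lower, against 19.9% of all varying probe sets, so the share was near that background. The median difference was 0.0058 over the 16 and -0.0040 over all varying probe sets. The median size of a difference was 0.16 over the 16 and 0.082 over all varying probe sets.

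**Figure D1:**
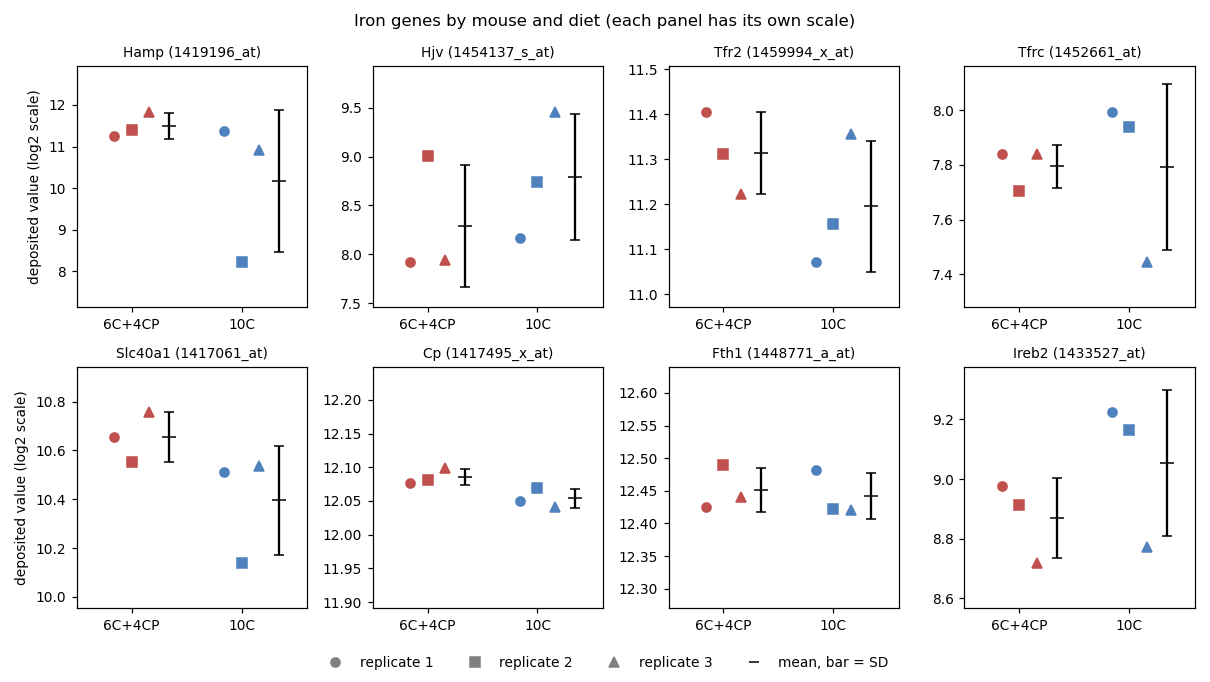
Deposited value on a log2 scale (y axis, a scale of its own in each panel) in each of the 3 livers of 6C+4CP (left, red) and 10C (right, blue), for the varying probe set with the highest mean of each of 8 iron genes; black marks are the mean and SD. Hamp was 8.22 in 10C replicate 2 and 10.91 to 11.84 in the other livers.

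For Hamp, the hepcidin gene, the difference between the diets rested mostly on 1 liver. Its probe set 1419196_at read 11.25, 11.39 and 11.84 in the 6C+4CP livers, against 11.37, 8.22 and 10.91 in the 10C livers. The 10C liver with 8.22, replicate 2, was far below the rest. Of the other 10C livers replicate 1 lay within the 6C+4CP range, while replicate 3 was below it and second lowest on both Hamp probe sets. The second probe set, 1419197_x_at, read 10.98, 10.86 and 11.28 in 6C+4CP livers, against 11.01, 7.66 and 10.41 in 10C livers. The ending _x_at means that some of its probes match other sequences, and Hamp2 is a near copy, yet both probe sets put the same liver lowest. The means of 1419196_at were 11.49 ± 0.31 in 6C+4CP and 10.17 ± 1.70 in 10C (SD, n = 3 each), a log2 difference of 1.33 (SE 0.98, 95% interval -1.36 to 4.01) or 2.51 times, which did not pass limma (adjusted p = 0.852). Without 10C replicate 2 the differences were 0.35 for 1419196_at and 0.33 for 1419197_x_at.

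The gap between 10C replicate 2 and the next lowest liver was 2.69 for 1419196_at and 2.75 for 1419197_x_at. That liver was the lowest of the 6 in 986 (12.7%) of the 7791 varying probe sets, and the 2 Hamp probe sets had the widest gaps of all these. It was the highest of the 6 in 2040 varying probe sets. Among the 16 varying iron gene probe sets it was lowest in 4, which were both of Hamp, 1417061_at of Slc40a1 and 1425381_a_at of Tfr2, where the gap was only 0.026.

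The same liver carried the highest values of the acute phase genes Saa1 and Saa2, serum amyloid A proteins made by hepatocytes in inflammation. These genes were singled out after their values were seen. Saa1 read 7.87, 7.54 and 9.13 in 6C+4CP livers, against 7.68, 14.03 and 8.84 in 10C livers. Saa2 read 6.68, 6.60 and 7.31 in 6C+4CP livers, against 6.73, 11.52 and 6.86 in 10C livers. The 10C liver with the lowest Hamp value thus had the highest Saa1 value by 4.89 and the highest Saa2 value by 4.204. Lcn2, lipocalin 2, which binds bacterial iron carriers, was also highest there at 7.34, with 6.09, 6.14 and 6.78 in 6C+4CP livers and 6.48 and 6.25 in the other 10C livers. Over the whole acute phase list 20 of 26 measured genes varied, 5 higher and 15 lower in 6C+4CP, 0 passing limma and 0 at an unadjusted p under 0.05. The mean over its varying genes was 9.87 to 10.10 in 6C+4CP livers and 9.90, 10.59 and 10.15 in 10C livers. That mean includes the high Saa1 and Saa2 values of 10C replicate 2 and was not computed without them. It therefore does not show a rise across the list in that liver. By the rule for naming, Orm2, Itih3 and Saa4 of that list differed by 0.63, -0.13 and -0.39, none passing limma. Itih3 was highest in 10C replicate 2 at 12.03, but Orm2 in 6C+4CP replicate 3 at 7.61 and Saa4 in 10C replicate 3 at 12.25. Whether inflammation in that mouse bears on its Hamp value was not tested.

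Id3, Id1 and Atoh8, known targets of BMP signalling, each had their lowest value in that liver. Id3 and Id1 were named by rule, but Atoh8 and this grouping were chosen after the values were seen. How many of the 16 varying genes that control hepcidin were lowest in 10C replicate 2 was not counted. Hnf4a, given below, was also lowest there at 10.80. Bmp2, however, was lowest in 10C replicate 3 at 7.61, and Creb3l3 and Tmprss6 in 10C replicate 1 at 10.03 and 10.40. BMP signalling itself was not tested. Id3, a target of SMAD proteins, read 7.80, 7.71 and 7.87 in 6C+4CP livers, against 7.75, 7.27 and 7.73 in 10C livers, so that 10C replicate 2 was lowest by 0.44. Id1, another such target, read 7.40, 7.42 and 7.82 in 6C+4CP livers, against 6.72, 6.25 and 7.05 in 10C livers. For Id1 the diets did not overlap, and 10C replicate 2 was again lowest. Its difference of 0.87 (SE 0.26, 95% interval 0.15 to 1.59) did not pass limma over all probe sets (adjusted p = 0.683) or over varying ones (0.206), and was 0.66 without 10C replicate 2. Atoh8, a transcription factor also induced by BMP signals, read 7.04, 6.99 and 7.25 in 6C+4CP livers, against 6.86, 6.70 and 7.29 in 10C livers. Bmp6 and the inhibitory Smad6 and Smad7 did not vary on their main probe sets and so cannot show whether they were low there.

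**Figure D2:**
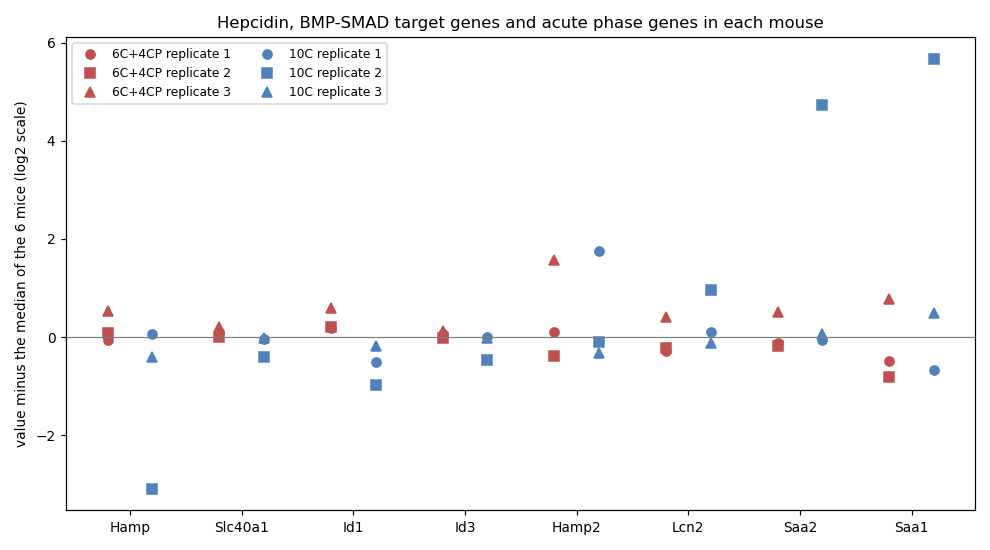
Value of each gene in each liver minus its median over the 6 livers (y axis, log2 scale), with 6C+4CP livers in red left of 10C livers in blue and the marker giving the replicate. 10C replicate 2 (blue square) is lowest for Hamp, Slc40a1, Id1 and Id3 and highest for Lcn2, Saa2 and Saa1, but not at either end for Hamp2. Genes other than Hamp and Slc40a1 were picked for this plot after their values were seen. Itih3, also highest in that liver, and Orm2 and Saa4, highest in other livers, are not shown.

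The neighbour Hamp2, a hepcidin copy in mice, did not follow Hamp on its main probe set. That probe set too ends in _x_at, so some of its probes match other sequences. Its varying probe set 1436643_x_at read 8.33, 7.86 and 9.80 in 6C+4CP livers, against 9.99, 8.13 and 7.90 in 10C livers. Values near the top came from 1 liver of each diet, and the difference of -0.012 (SE 0.87) did not pass limma (adjusted p = 1.00). Among 1435 genes outside the set whose main probe set ranged over more than 0.5, those with patterns closest to Hamp over the 6 arrays were Id3 (Pearson r = 0.982, Spearman rho = 0.60), Osbpl9 (0.926 and 0.83) and Rnf186 (0.919 and 0.60). Leaving out the 2 livers farthest from the Hamp median, 10C replicate 2 and 6C+4CP replicate 3, took these r to 0.084, 0.34 and 0.56 over 4 arrays, so the likeness rests on those livers.

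Hjv encodes hemojuvelin, the BMP co-receptor without which hepcidin is scarcely made. Probe set 1454137_s_at read 7.92, 9.01 and 7.94 in 6C+4CP livers, against 8.17, 8.74 and 9.46 in 10C livers. Probe set 1429223_a_at read 6.92, 7.90 and 6.97 in 6C+4CP livers, against 7.04, 7.62 and 8.11 in 10C livers. Both put 10C replicate 3 first and 6C+4CP replicate 2 second, the pair of livers that were alike across the table, and the diets overlapped. The differences were -0.50 (SE 0.51, 95% interval -1.89 to 0.89) and -0.33 (SE 0.43), with adjusted p of 0.868 and 0.910 by limma. Without 10C replicate 3 they were -0.17 and -0.07, and without 6C+4CP replicate 2 -0.86 and -0.64.

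Tfr2, the second transferrin receptor, acts in hepatocytes as a sensor of iron-laden transferrin upstream of hepcidin. Its probe set 1459994_x_at read 11.41, 11.31 and 11.22 in 6C+4CP livers, against 11.07, 11.16 and 11.36 in 10C livers, a difference of 0.12 (SE 0.098), which ran from 0.057 (without 10C replicate 1) to 0.20 (without 10C replicate 3). Probe set 1425381_a_at read 10.26, 10.46 and 10.24 in 6C+4CP livers, against 10.23, 10.20 and 10.70 in 10C livers, a difference of -0.055 (SE 0.17), or 0.11 without 10C replicate 3. The 2 probe sets thus had differences of opposite sign, with overlap in both and adjusted p of 0.852 and 0.990 by limma. Hfe, the MHC class I-like protein that pairs with transferrin receptors and is altered in hereditary hemochromatosis, sat at 8.17 (1422645_at) and 6.70 (1450702_at) in every liver. Neither Hfe probe set varied, so nothing can be said of the diets there.

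Tfrc encodes the transferrin receptor by which cells take up iron. Its 1 varying tested probe set, 1452661_at, read 7.84, 7.70 and 7.84 in 6C+4CP livers, against 7.995, 7.94 and 7.44 in 10C livers. The 6C+4CP livers lay inside the range of the 10C livers, and the means were 7.79 ± 0.078 in 6C+4CP and 7.79 ± 0.30 in 10C (SD, n = 3 each). The difference was 0.0017 with a 95% interval of -0.48 to 0.49, and -0.17 without 10C replicate 3. The other 2 tested probe sets did not vary, at 6.53 and 5.71, and of the 3 array controls for this receptor 2 did not vary, at 6.52 and 5.62, while the third read 5.67 to 5.71 in 6C+4CP and 5.69 to 5.71 in 10C. The genes with patterns closest to Tfrc over the 6 arrays were Trnt1 (r = 0.983, rho = 1.00), Rcbtb2 (0.981 and 0.94) and Eif2s3y (0.978 and 0.94). With 10C replicates 1 and 3 left out their r was 0.943, 0.955 and 0.925 over 4 arrays. These genes were picked out of 1435 for their high r on arrays that include these 4, so this is no separate test of likeness.

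Slc40a1 encodes ferroportin, the exporter through which iron leaves hepatocytes and macrophages. Probe set 1417061_at read 10.65, 10.55 and 10.76 in 6C+4CP livers, against 10.51, 10.14 and 10.54 in 10C livers. The diets did not overlap, though the lowest 6C+4CP liver and the highest 10C liver were 10.55 and 10.54. The means were 10.65 ± 0.10 in 6C+4CP and 10.40 ± 0.22 in 10C (SD, n = 3 each), and the difference of 0.26 (SE 0.14, 95% interval -0.12 to 0.64) did not pass limma (adjusted p = 0.764). It was 0.13 without 10C replicate 2, the liver with the lowest Hamp value, which was also the lowest for ferroportin. The second probe set, 1448566_at, did not vary, at 8.80. Kupffer cells, the macrophages of liver that recycle iron from red cells, also express this gene. Of 14 measured Kupffer cell and macrophage markers 9 varied, 1 higher and 8 lower in 6C+4CP, all with overlap and 0 passing limma (0 at an unadjusted p under 0.05). Their mean was 7.92 to 8.46 in 6C+4CP livers and 8.16 to 8.57 in 10C livers, and the named ones Mpeg1, Cd5l and C1qc differed by -0.33, -0.28 and -0.21.

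Cp encodes ceruloplasmin, the copper-containing ferroxidase of plasma that oxidises exported iron for binding to transferrin. It has 8 tested probe sets, 6 of them varying, and their differences were of either sign. Probe set 1417496_at read 10.03, 10.10 and 10.13 in 6C+4CP livers, against 10.69, 10.53 and 10.51 in 10C livers. Every 6C+4CP liver was below every 10C liver, with means of 10.09 ± 0.047 in 6C+4CP and 10.58 ± 0.10 in 10C (SD, n = 3 each). The difference of -0.49 (SE 0.063, 95% interval -0.66 to -0.32), 1.41 times lower in 6C+4CP, had the smallest p of any iron gene probe set (0.00126 unadjusted, limma) and did not pass after adjustment (adjusted p = 0.291, and 0.101 over varying probe sets). It lay between -0.52 and -0.43 with any 1 liver left out.

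The other Cp probe sets had differences of either sign, and differences between probe sets were not tested. The brightest, 1417495_x_at, read 12.08, 12.08 and 12.10 in 6C+4CP livers, against 12.05, 12.07 and 12.04 in 10C livers, without overlap and in the opposite direction by 0.032 (SE 0.010, adjusted p = 0.704 by limma). With limma on varying probe sets alone the SE of 1417495_x_at was 0.031, about as large as its difference (adjusted p = 0.717). Probe set 1417494_a_at differed by 0.061 (SE 0.039), 1448734_at by 0.13 (SE 0.092) and 1441326_at by -0.31 (SE 0.27, 95% interval -1.04 to 0.43), all with overlap. With 1 liver left out 1417494_a_at ran from 0.031 (without 10C replicate 3) to 0.096 (without 10C replicate 2), and 1448734_at was 0.053 without 10C replicate 3. The lower one, 1441326_at, ran from -0.54 without 6C+4CP replicate 2 to -0.17 without 6C+4CP replicate 3. Probe set 1455393_at differed by -0.0060 (SE 0.13), with 6C+4CP replicate 2 highest at 11.63 against 11.23 to 11.40 in the other livers. Probe sets 1417497_at and 1448735_at did not vary, at 6.37 and 6.46. The files do not say which transcript forms of Cp each probe set reads, so no level of the gene as a whole is given.

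**Figure D3:**
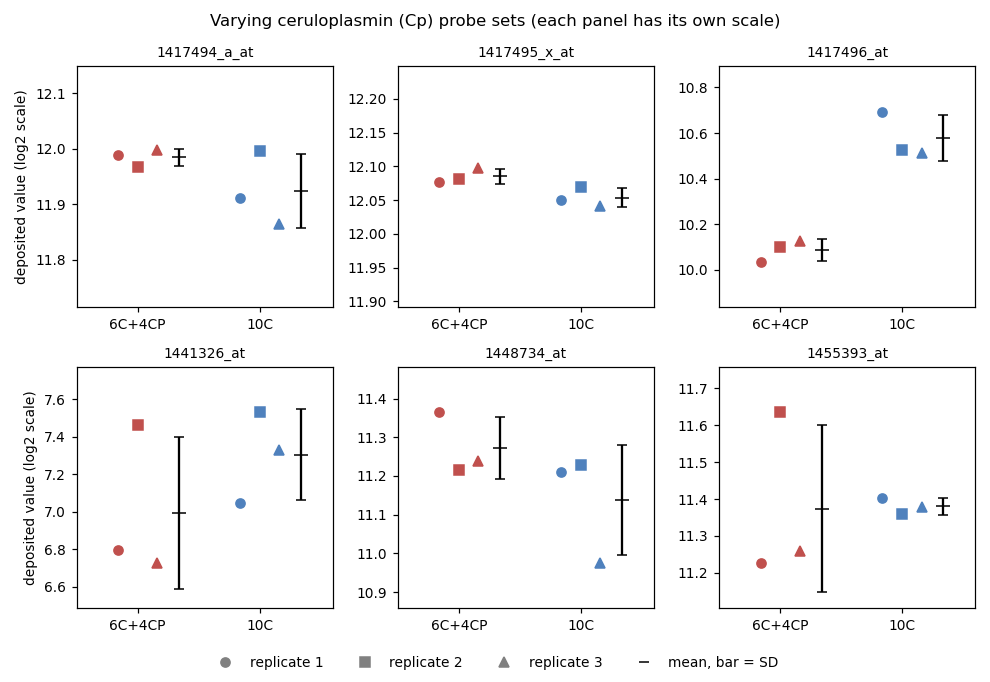
Deposited value on a log2 scale (y axis, a scale of its own in each panel) of the 6 varying Cp probe sets in each liver of 6C+4CP (left, red) and 10C (right, blue), with mean and SD in black. 1417496_at is lower in all 3 6C+4CP livers, at 10.03 to 10.13 against 10.51 to 10.69, and 1417495_x_at is slightly higher.

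Neither Fth1 nor Ireb2 RNA passed the test, and iron storage itself was not measured. Fth1, the ferritin heavy chain that oxidises iron for storage, read 12.42, 12.49 and 12.44 on 1448771_a_at in 6C+4CP livers, against 12.48, 12.42 and 12.42 in 10C livers. The difference was 0.0099 (95% interval -0.066 to 0.086), and the second Fth1 probe set, 1427021_s_at, did not vary, at 12.81. Ireb2, an iron regulatory protein that is broken down when iron is plentiful, read 8.98, 8.91 and 8.72 in 6C+4CP livers, against 9.22, 9.16 and 8.77 in 10C livers. The lowest liver of each diet was replicate 3, and the diets overlapped. The difference of -0.18 (SE 0.16, 95% interval -0.62 to 0.25) did not pass limma (adjusted p = 0.852), and it ran from -0.32 (10C replicate 3 left out) to -0.099 (10C replicate 1 left out), with -0.11 when 6C+4CP replicate 3 was left out.

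**Figure D4:**
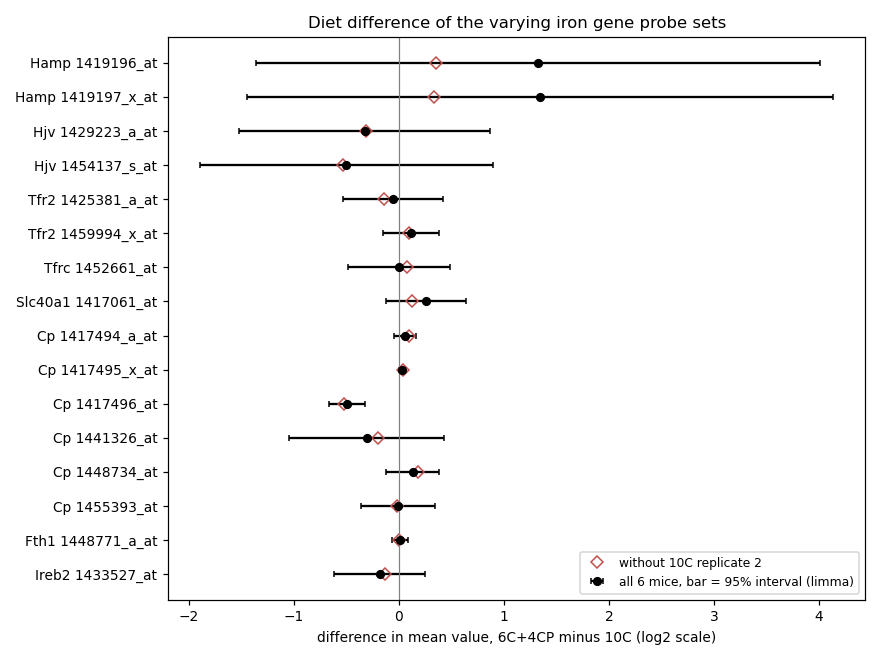
Difference in mean value, 6C+4CP minus 10C (x axis, log2 scale), of the 16 varying iron gene probe sets, one per row; black points with bars are all 6 livers with the 95% interval of limma, and open red diamonds leave out 10C replicate 2. Only the 2 Hamp probe sets lie above 1 (1.33 and 1.35), and without this liver they are 0.35 and 0.33.

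Beyond the set, 5 lists of iron genes held 89 genes, of which 83 were measured and 36 varied on their main probe set, 18 higher and 18 lower in 6C+4CP. With limma 0 of the 83 passed over all probe sets (6 at an unadjusted p under 0.05) and 0 of the 36 over varying ones (4 at an unadjusted p under 0.05). In the same fits 2890 of 45037 probe sets and 1140 of 7791 varying ones had such an unadjusted p. The diets did not overlap in 5 of the 36 (13.9%), 4 higher and 1 lower, against 21.4% of the 4074 genes whose main probe set varied. Their median difference was -0.0015, beside -0.0051 over those 4074 genes.

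Of the genes that control hepcidin, 16 of 30 measured varied, 12 higher and 4 lower in 6C+4CP, 0 passing limma and 2 at an unadjusted p under 0.05. The 2 without overlap were Id1, given above, and Hnf4a, a transcription factor of hepatocyte identity. Hnf4a read 11.49, 11.41 and 11.45 in 6C+4CP livers, against 11.22, 10.80 and 11.13 in 10C livers, a difference of 0.40 (SE 0.13), or 0.28 without 10C replicate 2. Creb3l3, a stress-responsive factor that can activate Hamp, differed by 0.11 (SE 0.071), or 0.044 with 10C replicate 1 left out, and Id3 by 0.21 (SE 0.16), or 0.056 without 10C replicate 2. Tmprss6, the protease that cleaves hemojuvelin, read 10.57, 10.78 and 10.73 in 6C+4CP livers, against 10.40, 10.55 and 10.74 in 10C livers. Stat3, the factor that carries the interleukin-6 signal, read 8.52, 8.94 and 8.11 in 6C+4CP livers, against 8.61, 8.75 and 9.02 in 10C livers.

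Of the genes of iron uptake, reduction and transport, 6 of 17 measured varied, 2 higher and 4 lower, all with overlap. The iron chaperones Pcbp2 and Pcbp1 differed by 0.21 (SE 0.12) and -0.13 (SE 0.12), or 0.12 for Pcbp2 with 6C+4CP replicate 2 left out and -0.029 for Pcbp1 without 10C replicate 2. The metalloreductase Steap4 differed by -0.49 (SE 0.46), which ran from -0.79 (6C+4CP replicate 3 left out) to -0.16 (10C replicate 1 left out). Lcn2 differed by -0.36 (SE 0.39), or -0.032 without 10C replicate 2. Among 6 genes of iron sensing and ferritin turnover 4 varied, and Hif1a, an oxygen-responsive transcription factor, read 9.22, 9.22 and 9.28 in 6C+4CP livers, against 8.999, 8.83 and 8.59 in 10C livers. The diets did not overlap for Hif1a, and its difference of 0.43 (SE 0.12) did not pass limma (adjusted p = 0.619, and 0.188 over varying probe sets). Epas1, its relative, Fbxl5, the ligase subunit that removes iron regulatory protein, and Ncoa4, the receptor for ferritin breakdown, differed by 0.050, -0.0092 and 0.0033.

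Of 12 measured genes of heme and hemoglobin salvage 4 varied, 1 higher and 3 lower. Flvcr1, a heme exporter, read 6.97, 6.89 and 6.89 in 6C+4CP livers, against 6.81, 6.74 and 6.78 in 10C livers, a difference of 0.14 (SE 0.035) without overlap that did not pass limma (adjusted p = 0.574). The plasma scavengers Hpx and Hp and the receptor Lrp1 differed by -0.013, -0.0062 and -0.034. Of 18 measured genes of mitochondrial iron and iron-sulfur clusters 6 varied, 0 higher and 6 lower, with 0 passing limma and 0 at an unadjusted p under 0.05. Iscu, the scaffold on which the clusters are built, read 9.91, 9.94 and 9.90 in 6C+4CP livers, against 10.02, 9.94 and 10.06 in 10C livers, and the ferredoxin Fdx1, the cluster factor Bola3 and the desulfurase Nfs1 differed by -0.20, -0.066 and -0.11. The largest of these 4 differences was -0.204, for Fdx1. Only Iscu did not overlap, though its highest 6C+4CP liver and lowest 10C liver were 9.936 and 9.942.

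Markers of other cells were looked at on the same livers. Of 6 measured erythroid genes only Alas2, the erythroid heme synthesis enzyme, varied, at 9.62 to 9.77 in 6C+4CP and 9.52 to 9.63 in 10C. Of 12 sinusoidal endothelial markers, the cells that make BMP ligands, 3 varied (Stab1, Fcgr2b and Mrc1), with means of 8.37 to 8.38 in 6C+4CP and 8.27 to 8.45 in 10C. Stellate cell markers varied in 6 of 10, 2 higher and 4 lower with a median of -0.0076 and 0 passing limma (1 at an unadjusted p under 0.05). The 2 higher were Colec11 and Col3a1 with 0.26 and 0.14, and Dcn, among the lower ones, had -0.056. No marker of cholangiocytes (5 measured) or neutrophils (7 measured) varied. Of 8 lymphocyte markers only Ighm, the immunoglobulin heavy chain, varied, at 8.26 to 8.40 in 6C+4CP and 8.66 to 9.22 in 10C, and it did not pass limma (adjusted p = 0.610). The list's 1 call by limma over all probe sets was another marker, whose values did not vary. Of 9 measured hepatocyte markers 8 varied, 2 higher and 6 lower in 6C+4CP, with 0 passing limma and 3 at an unadjusted p under 0.05. The diets did not overlap in 5 of these 8, 1 higher and 4 lower, a larger share than the 21.4% of all 4074 genes whose main probe set varied. The lower ones included Cps1, Apoa1 and Ahsg with differences of -0.27, -0.11 and -0.074. The part of these in the iron gene values was not tested.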

How the data were processed

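Liver RNA of 6 mice was labelled with an Affymetrix 3' IVT Express kit from 100 ng of total RNA and hybridised to 1 array a mouse, as the labels' protocols state. The values are the authors' deposited ones on a log2-like scale, 1 per probe set and array. The submitters' processing notes name R 2.7.2. No source used here gives the authors' background correction, summarisation or log base. The values were taken without further normalization, and log2 was read from their range.

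GEO's platform annotation named the probe sets, and 64 array controls were left out. Diet was tested by lmFit and eBayes of limma 3.58.1, under R 4.3.3, on all 6 arrays with no covariates, over 45037 probe sets with Benjamini-Hochberg adjustment and a threshold of 0.05, and the fit was tested on simulated data. A gene's main probe set is the one with the highest mean. Named genes are all members, up to 4 per other iron list and up to 3 per marker list with the smallest p among varying ones, and the 3 most like Hamp and Tfrc. Saa1, Saa2, Hamp2, Atoh8, Bmp2, Bmp6, Smad6, Smad7, Tmprss6 and Stat3 were chosen after their values were seen. Members and lists were chosen with earlier results of these data known. Promoter windows are RefSeq's (GRCm38.p6), aligned with Biopython 1.88. No depth or signal over background comes with these values. Alternatives were the varying probe sets alone, the replicate block, each array left out, other scalings, filters, variance models, thresholds and probe set rules.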

Additional observations from a re-analysis of the deposited data

How the results depend on the processing

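The iron gene result, 0 probe sets called, held under every alternative run, while the count over all probe sets, 109, did not: it was 0 on varying probe sets alone (also with any 1 array left out, an alternative chosen after seeing the data), on the brighter probe sets, after median centring and with an intensity trend and robust estimation. It was 1 after quantile normalization and on probe sets ranging over more than 0.1, 3 with the replicate number as a block, 46 with 1 probe set per gene and 285 to 398 with 1 array left out; the cause was not tested. Of the 109 only 6 varied. Iron gene probe sets without overlap, 3 in all, numbered 3 to 8 with 1 array left out (6, 5 and 7 without 10C replicates 1, 2 and 3, and 8 without 6C+4CP replicate 2), where fewer arrays make overlap rarer. The share over all varying probe sets was not computed for these settings, so the counts have no background to be read against. Other iron genes called, 0, became 1 without 10C replicate 2 (Bmp6) and 1 without 6C+4CP replicate 1 (Steap1), neither of which varied, so with 1 array left out they ran from 0 to 1.

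Of 229 recomputed differences of varying iron gene probe sets 219 kept their direction and 10 reversed. Those were Cp 1455393_at (0.0019 after quantile normalization, and -0.14 to 0.067 with 1 array left out), Fth1 1448771_a_at (-0.0090 to 0.030), Tfr2 1425381_a_at (-0.14 to 0.11) and Tfrc 1452661_at (-0.17 to 0.10), all small at the start. Hamp 1419196_at ran from 0.35 to 1.93. Adjusted p ran from 0.0773 to 0.665 for Cp 1417496_at, from 0.493 to 1 for Hamp 1419196_at and from 0.398 to 1 for Slc40a1. Whether the replicate numbers shared by the titles pair the mice cannot be settled with 3 mice a diet. Deviations from the diet means correlated at 0.48, -0.089 and 0.085 in same-numbered mice, and from -0.57 to 0.40 in differently numbered ones. With the replicate block 0 iron gene probe sets passed, as in every other fit.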
